A study of Mus musculus with 28 samples.

Results

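The cytosolic ribosomal protein genes were followed in bulk RNA-sequencing of mouse tail tendon fascicles from Fosl-2(Tg) and WT mice. Members were the protein-coding genes whose symbol begins with Rpl or Rps and a digit, together with Rplp0, Rplp1, Rplp2 and Rpsa, without pseudogenes and without the S6 kinases, which share the letters Rps6k but phosphorylate ribosomal proteins rather than forming part of the ribosome. This gave 89 of 25719 genes in the count tables. They comprised 46 core genes of the large subunit, 31 core genes of the small subunit, 11 paralogs or retrocopies of a core gene, and Rps19bp1, which is named for binding Rps19 and is not a subunit.

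Fosl-2(Tg) mice carry a randomly inserted Fosl2 gene, joined to eGFP through a self-cleaving peptide, under the MHC class I promoter H2Kb, and the WT mice were non-transgenic animals of the same breeding, all on a C57BL/6 background by the sample labels and C57Bl6/J by the study's reporting summary. The early cohort, aged 6 to 8 weeks, held 7 WT and 8 Fosl-2(Tg) mice, all male. The established cohort, older than 14 weeks, held 6 WT mice, 5 female and 1 male, and 7 Fosl-2(Tg) mice, 6 female and 1 male, so stage and sex could not be told apart. RNA came from homogenized fascicles and was depleted of ribosomal RNA, and the libraries held between 9645598 and 66894396 counts. Values are CPM, counts scaled to a common library size, after TMM adjustment, which sets the bulk of genes level between mice. In homogenized tissue, fewer cells of a type and less RNA per cell cannot be told apart.

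Ribosomal proteins assemble on ribosomal RNA into a small subunit, which reads the mRNA, and a large subunit, which joins the amino acids. The proteins are needed in matched amounts, and their mRNAs are among the most abundant in most cells. Many of these mRNAs begin with a terminal oligopyrimidine tract, a C followed by a run of C and T letters, through which the mTOR pathway and LARP1 set their translation. Translation itself is not measured by RNA counts.

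RefSeq entries of start-site sequence (build GRCm38.p6) matched 67 of the 89 members. The sequences below belong to genes described in the text and show the tract where it was found. Where a gene had several annotated starts, a start with a tract was shown if there was one. Rps27l and Rpl3l had 2 starts each. Every window shown holds a tract, which was the case for 60.8% of member starts. Each spans 30 bases, 10 before the annotated start and 20 from it, with the longest tract of a C and at least 4 further C or T letters in capitals. The capitals mark that tract wherever it falls in the window, so it need not begin the mRNA. In Rps27l it lies wholly before the annotated start, and in Rpl22l1 and Rpl3l it begins after that start.
Rps6: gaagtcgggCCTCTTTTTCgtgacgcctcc
Rps9: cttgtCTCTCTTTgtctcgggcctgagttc
Rps18: cacttccgCTCTCTCTTCCacaggaggcct
Rplp2: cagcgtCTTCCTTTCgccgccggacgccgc
Rps27: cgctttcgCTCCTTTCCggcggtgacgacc
Rps27l: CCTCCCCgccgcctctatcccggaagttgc
Rpl22l1: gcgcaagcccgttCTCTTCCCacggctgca
Rpl3l: ttctagctctgtcatttgaCCTCTggtgcc

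These windows lie at chr4:86857348-86857377 (minus strand, Rps6), chr7:3704031-3704060 (plus, Rps9), chr17:33955646-33955675 (minus, Rps18), chr7:141447641-141447670 (plus, Rplp2), chr3:90213629-90213658 (minus, Rps27), chr9:66946076-66946105 (plus, Rps27l), chr3:28805498-28805527 (plus, Rpl22l1) and chr17:24727816-24727845 (plus, Rpl3l). A tract on the sense strand was present in the window of 48 of 79 member starts (60.8%), against 11759 of 32851 starts of all genes (35.8%). A C at the annotated first base, followed by at least 4 further C or T letters, was present in 14 member starts (17.7%), against 2.51% of all starts. This count includes tracts that began before that base, as in Rps6 and Rps18. The tract was thus more frequent among members as a description of these letters, and annotated starts may lie some bases from the true cap. Of the core genes with an entry, the median log2 fold change between genotypes in the established cohort was 0.28 for the 37 with a tract and 0.32 for the 20 without one.

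Levels per length were compared as CPM per kilobase of the Ensembl canonical transcript, scaled over all 28 mice. Rplp1, an acidic protein of the stalk that contacts elongation factors, was the highest core gene in WT mice, at 883 ± 266 (SD, n = 7) in the early and 611 ± 159 (SD, n = 6) in the established cohort. Rps12, of the small subunit, followed at 864 ± 301 (SD, n = 7) and 584 ± 149 (SD, n = 6), so these neighbours did not differ beyond their spread. The lowest value in WT established mice was that of Rpl37, at 18.9 ± 4.70 (SD, n = 6), whose canonical transcript of 6111 bases is far longer than that of Rplp1, of 547 bases, and enters the value directly. The order of the 77 core genes was nearly the same in WT and Fosl-2(Tg) mice, with a Spearman rho across genes of 0.99 in each cohort.

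Reads of these genes are harder to place than most, since many have processed pseudogenes and introns that hold other genes. In the tables, 33 of the 89 members overlapped another gene, 3 of them on the same strand. As the strand and multiple-mapping settings of the counting are not given in the sources used here, counts of overlapping members and of retrocopies are uncertain. Rpl10l had no counts in any mouse, Rpl27rt had 21 counts in all and Rpl39l had 56, and these 3 passed the filter on low counts in no comparison. A 4th, Rps23rg1, did not pass in the early cohort alone, which left 85 members tested there and 86 elsewhere.

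The first question was whether the Fosl2 transgene went with a change of ribosomal protein mRNAs before the phenotype was established. Fosl2 itself was 64.1 CPM (median, 49.6 to 117) in WT early and 74.7 (53.7 to 134) in Fosl-2(Tg) early mice, with an adjusted p of 0.92 (edgeR's quasi-likelihood test, Benjamini-Hochberg over all genes), and the groups overlapped. In the established cohort the medians were 127 (94.1 to 202) and 177 (146 to 192), with an adjusted p of 0.14 by the same test. The tables therefore do not separate the genotypes by Fosl2 counts.

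No ribosomal protein gene passed the test for genotype in the early cohort. With edgeR's quasi-likelihood test, 0 of 85 members rose and 0 fell at an FDR of 0.05, against 0.00661% of all 15138 genes that rose and 0.033% that fell. None of the 85 had an unadjusted p below 0.05, and DESeq2 also called 0 in each direction. The median log2 fold change of the members was -0.06, against -0.01 for all genes, and 26 of 85 were above 0. That sign was not stable, since the median was 0.07 without WT early replicate 7 and 0.09 with limma voom and quality weights.

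The smallest p among the early members belonged to Rps2, a small-subunit protein at the entry of the mRNA channel. Its levels were 206, 287 and 306 CPM (lowest, median and highest) in WT and 261, 317 and 352 CPM in Fosl-2(Tg) mice, and the groups overlapped between 261 and 306 CPM. The log2 fold change was 0.20 ± 0.10 (SE), with an adjusted p of 0.83 (edgeR). Rpl22, a large-subunit protein, ran from 60.9 through 69.8 to 109 CPM in WT and from 45.1 through 58.1 to 90.3 CPM in Fosl-2(Tg) mice. Its log2 fold change was -0.28 ± 0.16 (SE; adjusted p = 0.85, edgeR), and the groups again overlapped. Rpl7l1, a paralog of Rpl7 that acts in ribosome assembly, had a log2 fold change of -0.12 ± 0.07 (SE; adjusted p = 0.85, edgeR). Rps6, the substrate of the S6 kinases, was nearly level, with means of 215 ± 77.9 CPM (SD, n = 7) and 220 ± 44.4 CPM (SD, n = 8).

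Among established mice most members were slightly higher with the transgene, but few passed the test. Rps9, Rpl9 and Rpl8 rose (3 of 86 members) and 0 fell, against 3.14% of all 15862 genes that rose and 3.37% that fell, so the number called was near the background in this fit. DESeq2 called 9 members higher (10.3% of members, against 5.62% of all genes) and limma voom with quality weights 18 (20.9% against 5.63%). The tilt was broader than the calls, with 81 of 86 members above 0. Their median log2 fold change was 0.30, against 0.01 for all genes. An unadjusted p below 0.05 (edgeR) was found in 22 members, all higher, against 2134 genes higher and 2079 lower of all 15862. The members thus departed from all genes in direction more than in the number below 0.05. Members also moved together from mouse to mouse, as given below, so their signs are not independent in any comparison. The mean log2 CPM of the 77 core genes, 7.10 to 7.93 in WT and 7.32 to 8.15 in Fosl-2(Tg) established mice, overlapped between genotypes. No member had all Fosl-2(Tg) mice above all WT mice, against 1.58% of all genes. All 7 transgenic mice exceeded the WT mean in 14 of the 77 core genes, a count that was not made over all genes.

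Rps9, a small-subunit protein that takes part in decoding accuracy, lies at chr7:3706979-3710719 (GRCm39) and carried the tract shown above. It was measured at 164, 186 and 201 CPM (lowest, median and highest) in WT and at 195, 235 and 246 CPM in Fosl-2(Tg) mice. Of the 7 transgenic mice, 6 exceeded the highest WT mouse, replicate 6 only barely at 201.4 CPM against 200.9 CPM, and replicate 7 was within the WT range. The log2 fold change was 0.30 ± 0.08 (SE), with an adjusted p of 0.041 (edgeR).

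Rpl8, a protein near the catalytic centre of the large subunit (chr15:76788271-76790514), ran from 228 through 261 to 303 CPM in WT and from 259 through 404 to 453 CPM in Fosl-2(Tg) mice. Replicates 6 and 7 of the Fosl-2(Tg) group, at 259 and 274 CPM, lay within the WT range, and the other 5 were above it. The log2 fold change was 0.53 ± 0.15 (SE; adjusted p = 0.046, edgeR). Rpl9, which sits at the base of the stalk (chr5:65540227-65548804), ran from 152 through 169 to 221 CPM in WT and from 193 through 251 to 358 CPM in Fosl-2(Tg) mice, with a log2 fold change of 0.52 ± 0.14 (SE; adjusted p = 0.046, edgeR). These calls were close to the threshold, and all 3 were lost with no filter on low counts (0 called, 21 members with an unadjusted p below 0.05) and with females only (0 called, 12 below 0.05, median log2 fold change of the members 0.18). Leaving out 1 mouse gave 0 calls in 10 of the 13 fits made and 6 calls without Fosl-2(Tg) replicate 7, while the median log2 fold change stayed between 0.20 and 0.43.

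**Figure D1:**
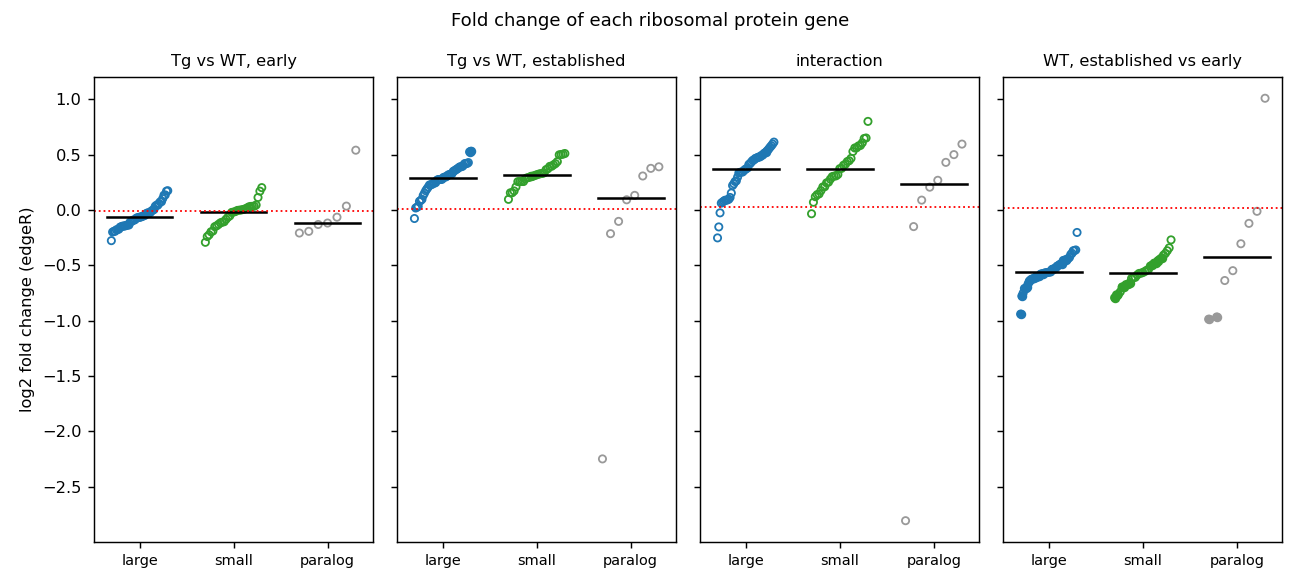
Each circle is the log2 fold change (vertical axis, edgeR) of 1 ribosomal protein gene in 4 comparisons, split into large-subunit, small-subunit and paralog genes. Filled circles passed an FDR of 0.05, black bars are medians and the red dotted line is the median of all genes tested. Both subunits lie near 0 in the early cohort, around 0.3 in the established cohort and around -0.56 between WT stages.

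Further small-subunit genes were higher without passing the test. Rps3, at the mRNA entry channel and also a DNA repair factor, averaged 196 ± 40.4 CPM (SD, n = 6) among established WT and 277 ± 64.2 CPM (SD, n = 7) among established transgenic animals (log2 fold change 0.50 ± 0.16 SE, adjusted p = 0.073, edgeR). The values for Rps18, Rps6 and Rps19, the last of which is mutated in Diamond-Blackfan anaemia, were 0.50 ± 0.16, 0.44 ± 0.15 and 0.50 ± 0.17 (log2 fold change ± SE), with adjusted p of 0.078, 0.084 and 0.092 (edgeR). In these 4 genes every Fosl-2(Tg) mouse was above the WT mean, and in Rps3 and Rps6 the groups overlapped only through WT replicate 6. Smaller log2 fold changes were found for Rps27a, Rpsa and Rps26, at 0.36 ± 0.21, 0.15 ± 0.18 and 0.095 ± 0.13 (SE). Their adjusted p were 0.29, 0.61 and 0.66 (edgeR).

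Among large-subunit genes, Rpl3, which lines the peptidyl transferase centre, had a log2 fold change of 0.36 ± 0.13 (SE; adjusted p = 0.091, edgeR). Rpl5 and Rpl11, which bind 5S RNA and can restrain Mdm2, had log2 fold changes of 0.27 ± 0.18 and 0.24 ± 0.15 (SE). The stalk proteins were uneven, with Rplp2 at 0.39 ± 0.15, Rplp1 at 0.19 ± 0.17 and Rplp0 at 0.02 ± 0.13 (log2 fold change ± SE), none of them past the test. Rpl10, the last protein to join the large subunit, was also nearly level at 0.02 ± 0.15. Rplp0 and Rpl10 showed how 1 mouse weighs on these means, since WT replicate 6 held their highest WT values, 1074 and 583 CPM, against at most 740 and 383 CPM in the other WT mice.

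Large- and small-subunit genes shifted by similar amounts. For established mice the median log2 fold change was 0.28 over the 46 large-subunit genes and 0.32 over the 31 small-subunit genes, and in the early cohort it was -0.07 and -0.02. Per mouse, the mean log2 CPM of large-subunit genes minus that of small-subunit genes was -0.07 ± 0.01 (SD, n = 7) in WT early, -0.07 ± 0.04 (SD, n = 8) in Fosl-2(Tg) early, -0.06 ± 0.02 (SD, n = 6) in WT established and -0.11 ± 0.04 (SD, n = 7) in Fosl-2(Tg) established mice. The lowest of these differences, -0.16, -0.14 and -0.13, belonged to Fosl-2(Tg) established replicates 2, 1 and 3, apart from -0.15 in Fosl-2(Tg) early replicate 5.

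**Figure D2:**
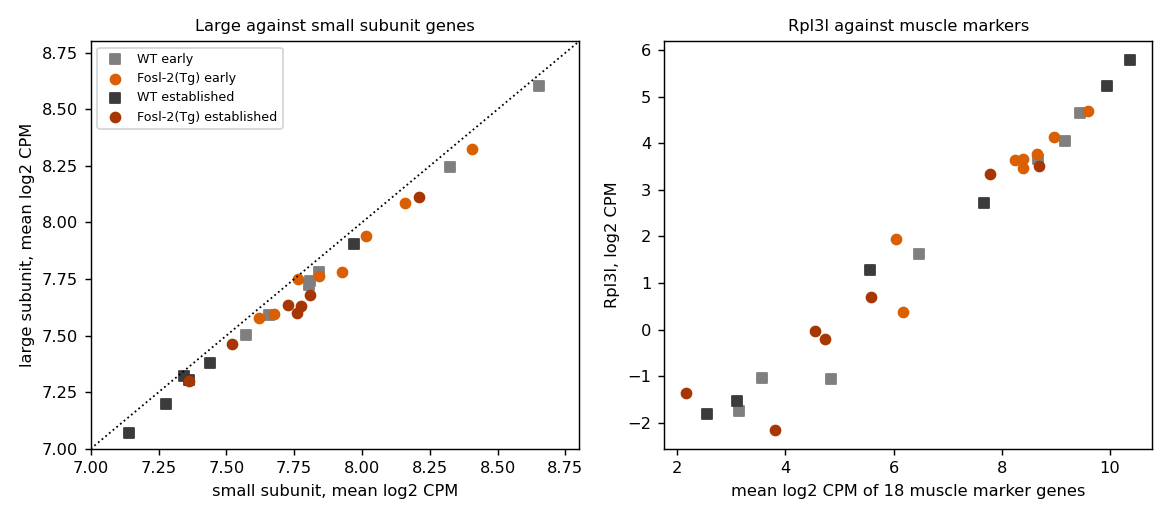
Left, mean log2 CPM of large-subunit genes (vertical) against small-subunit genes (horizontal), 1 point per mouse, with the dotted line marking equal values. Right, log2 CPM of Rpl3l (vertical) against the mean log2 CPM of 18 muscle markers (horizontal), where the 28 mice of all 4 groups follow a single rising band.

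Other genes of protein synthesis did not all share this tilt. Among established mice, of 40 ribosome biogenesis genes 0 passed and 30 were above 0, with a median of 0.10. Of 36 translation factors 0 passed and 23 were above 0, with a median of 0.07. Of 21 regulators of ribosomal protein synthesis, 0 passed and 16 were above 0 (median 0.10), against 8048 of all 15862 genes above 0. The 78 mitochondrial ribosomal proteins, which build the separate ribosome of that organelle, had a median of -0.10, with 61 of 78 below 0 and 0 called in either direction. In the order given, 8, 2, 6 and 7 genes of these lists had an unadjusted p below 0.05 in edgeR, of which 6, 1, 5 and 2 were higher. DESeq2 called 1, 1, 2 and 1, the 2 regulators higher and the others lower. A list of 3 ribosomal proteins outside the symbol rule had all 3 above 0, with a median of 0.33. Of these, 0 passed in edgeR and 1 in DESeq2.

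Marker genes of cell types in the tissue were compared between genotypes in the same cohort. All 11 tendon markers were lower in Fosl-2(Tg) established mice, 4 of them past the test, and their mean log2 CPM ranged from 10.9 to 11.3 in WT mice and, with the transgene, from 7.30 to 10.7. The mean over 6 erythroid markers ranged from -0.86 to 1.20 in WT mice and, with the transgene, from -0.38 to 3.43. That over 18 muscle markers ranged from 2.55 to 10.4 and from 2.17 to 8.70 in the same order. The erythroid and the muscle ranges overlapped between genotypes. In edgeR 0 of 5 erythroid and 0 of 18 muscle markers tested in this cohort passed. DESeq2 called 6 of 8 erythroid markers higher, 6 of 11 tendon markers lower and 0 muscle markers. Every tendon, muscle and erythroid marker in the tables had counts in both established groups. The mouse with the lowest tendon markers, Fosl-2(Tg) replicate 5, a male, had the highest member level of its group. The part of these markers in the ribosomal protein values was not tested.

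The counts of calls changed with the scaling. TMM factors were 1.03 to 1.10 in WT and 1.19 to 1.45 in Fosl-2(Tg) established mice. Scaled by library total alone, the median of all genes moved to 0.33 and that of the members to 0.62, so that 72 of 86 members were called higher (83.7%, against 45.6% of all genes), while the members' median relative to all genes remained 0.30. As a share of library counts, members made up 1.25% to 2.34% in WT and 1.85% to 3.55% in Fosl-2(Tg) established mice.

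The genotype effect was then compared between cohorts through the interaction term of a single fit to the 4 groups. Rpl8 was the only member called, with a log2 difference of 0.53 ± 0.16 (SE; adjusted p = 0.040, edgeR), so 1 of 86 members was higher and 0 lower, against 3.43% of all 16082 genes higher and 4% lower. The median over members in this term was 0.36, against 0.02 for all genes, and 79 of 86 were above 0. Without the 2 established males no member was called (7 with an unadjusted p below 0.05), and the median was 0.21.

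The WT mice of both cohorts were compared as well. Between WT early and WT established mice 25 of 86 members fell and 0 rose, against 3.48% and 2.33% of all genes. Of the members, 84 were below 0, with a median log2 fold change of -0.56 against 0.01 for all genes, and both subunits had a median near -0.56 and -0.57. In 5 members, Rpl22l1, Rpl35rt, Rpl8, Rps27rt and Rps9, no established WT mouse reached the lowest early WT mouse, against 1.22% of all genes. Library total in place of TMM left 3 called lower (3.49%, against 1.32% of all genes), with the median of all genes at 0.23 and that of the members at -0.35. Age and sex cannot be told apart here, since all early mice were male and 5 of 6 established WT mice were female.

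The members with the largest fall were Rps27rt, Rpl35rt, Rpl41, Rps29 and Rpl23. Rpl41, a short basic peptide that bridges the subunits, ran from 252 through 396 to 661 CPM in WT early and from 141 through 199.5 to 357 CPM in WT established mice (log2 fold change -0.94 ± 0.21 SE, adjusted p = 0.0095, edgeR), and the groups overlapped only through established replicate 6. Rps29, a zinc-binding protein of the small subunit, had means of 217 ± 68.6 CPM (SD, n = 7) and 125 ± 29.7 CPM (SD, n = 6), with an adjusted p of 0.028 (edgeR). The retrocopies Rps27rt and Rpl35rt fell by 0.99 and 0.97 on the log2 scale from means of 14.1 and 4.80 CPM, and the sequence they share with Rps27 and Rpl35 leaves their counts uncertain. The smallest p belonged to Rps9, which went from 196 to 230 CPM in early to 136 to 167 CPM in established WT mice (log2 fold change -0.43 ± 0.08 SE, adjusted p = 0.0021, edgeR).

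Members moved together from mouse to mouse. The mean log2 CPM of the 77 core genes ranged from 7.53 to 8.62 in WT early, from 7.60 to 8.36 in Fosl-2(Tg) early, from 7.10 to 7.93 in WT established and from 7.32 to 8.15 in Fosl-2(Tg) established mice. Within WT established, replicate 6 stood apart at 7.93 against 7.10 to 7.40 in the others, and it held the highest value in 75 of 77 core genes. Fosl-2(Tg) established replicate 5 was highest in 67 of 77, and WT early replicate 7 in 74 of 77. Of the established Fosl-2(Tg) mice, 6 of 7 were above the WT median, and the members' median log2 fold change was 0.43 without WT replicate 6 and 0.20 without Fosl-2(Tg) replicate 5.

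**Figure D3:**
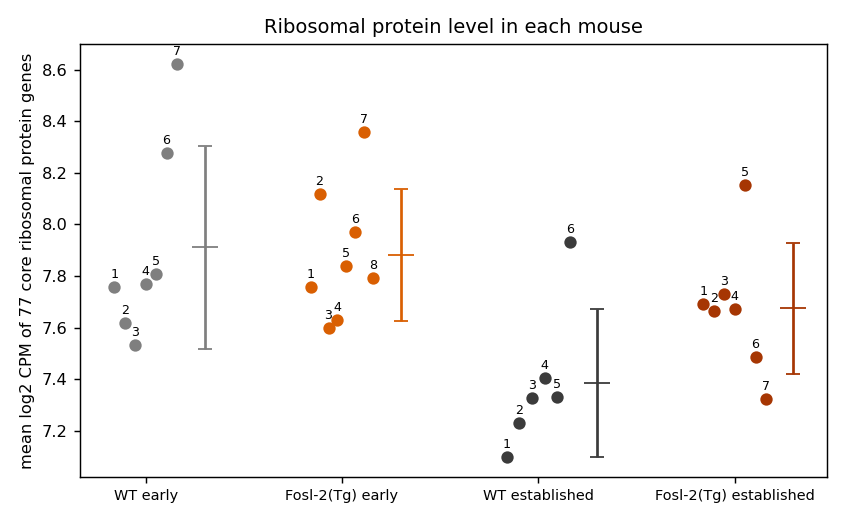
Mean log2 CPM of 77 core ribosomal protein genes (vertical axis) in each of 28 mice by group, numbered by replicate, with bars for mean ± SD. WT early replicates 6 and 7, WT established replicate 6 and Fosl-2(Tg) established replicate 5 lie above the rest of their groups.

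Centred on its group mean, the correlation across 28 mice of each core gene with the mean of the other core genes had a median r of 0.93, and 67 of 77 exceeded 0.8, against 208 of 15996 other genes (1.3%). These correlations are descriptive, since all genes of a mouse share its library and depth. The large- and small-subunit means correlated at r = 1.00 in the early (n = 15) and 0.99 in the established cohort (n = 13), both centred on group means. The least coupled core gene was Rplp2, at r = -0.002, followed by Rps9 at 0.60, Rps13 at 0.62 and Rpl8 at 0.63. Of the 3 members called in the established cohort, Rps9 and Rpl8 thus stood well below the median r, and Rpl9, at 0.93, stood near it.

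Rplp2, a stalk protein, did not follow the other members from mouse to mouse. Established mice had 122, 139 and 165 CPM (lowest, median and highest) in WT and 130, 166 and 248 CPM in Fosl-2(Tg) mice. The highest values belonged to Fosl-2(Tg) replicates 2, 3 and 4 and not to replicate 5, and WT replicate 6, which was highest in nearly all core genes, had the lowest Rplp2 of its group.

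**Figure D4:**
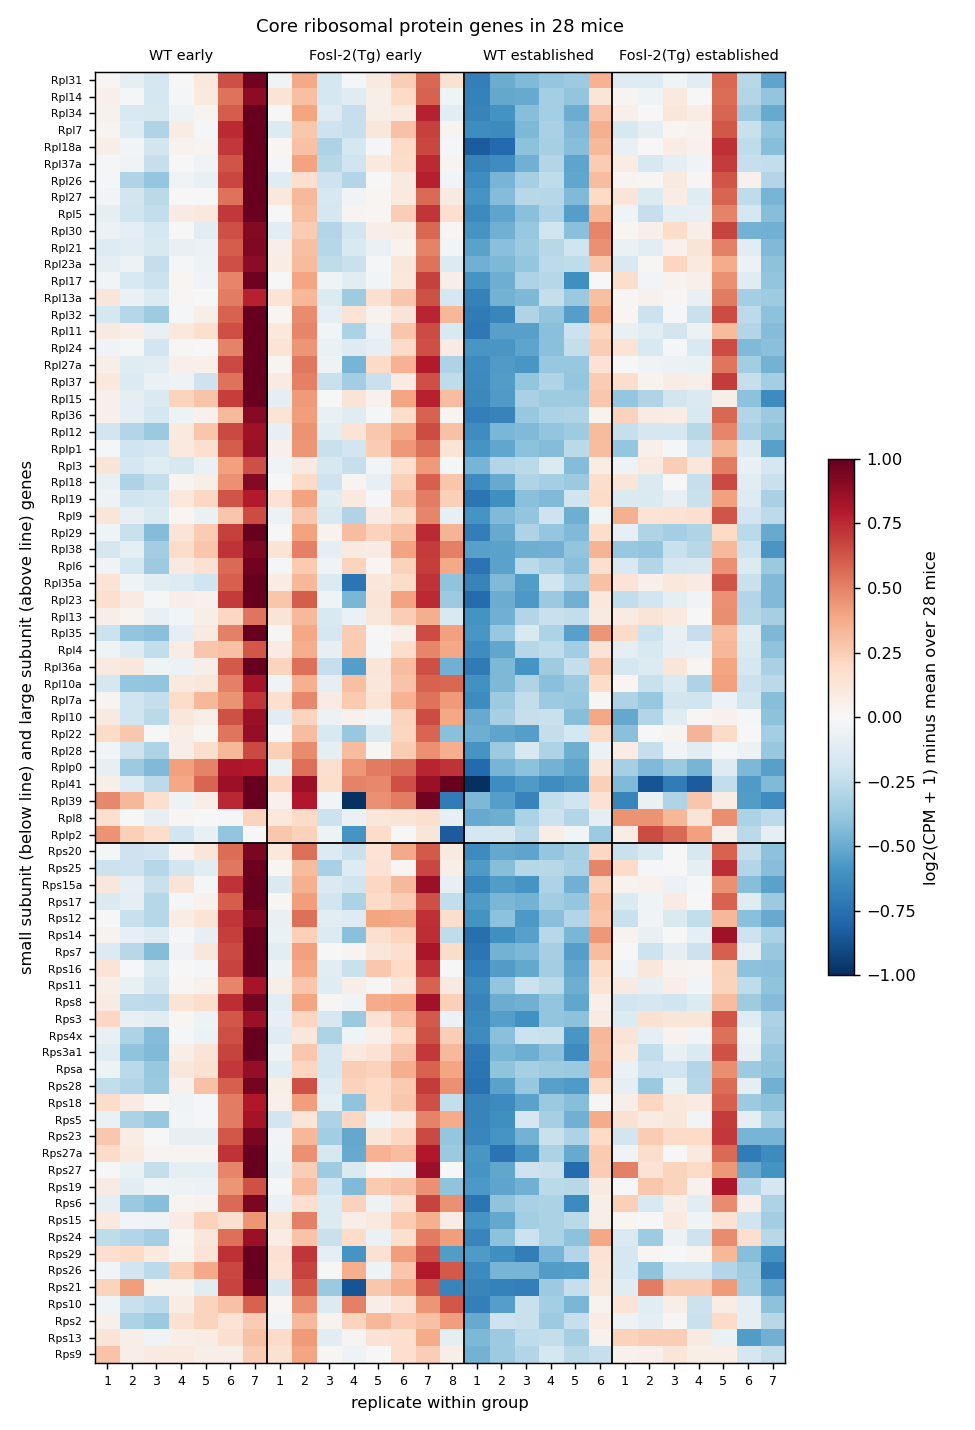
Log2(CPM + 1) of each core gene minus its mean over 28 mice (color, from -1 to 1), with mice in columns by group and genes in rows, large subunit above the line and small subunit below, ordered by correlation with the other core genes. Whole columns change color together, except in the lowest rows of each subunit, among them Rplp2, Rpl8 and Rps9.

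Among the genes outside the rule most like the members' mean, by the same correlation over 28 mice, were Wdr38, Gm45713, Tlcd1, D730044K07Rik, Rabac1, Fau, Kxd1, Srp9 and Snrpe, with r from 0.92 to 0.96. The first 4 overlap a member in the genome, namely Rpl35, Rpl13a, Rpl23a and Rpl30, so their counts may hold reads of these members, which was not tested. Fau encodes a ribosomal protein fused to a ubiquitin-like protein.

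The group-centred member level correlated with muscle markers at r = 0.10 (rho = 0.37) in early and 0.31 (rho = 0.11) in established mice. Without the 2 mice farthest from the median of these markers r was -0.12 and 0.12. With keratinocyte markers, 5 of which were tested, r was 0.52 (rho = 0.34) and 0.61 (rho = 0.70), and -0.09 and 0.47 without the 2 mice farthest from the median marker level. With erythroid markers it was -0.17 (rho = -0.24) and 0.46 (rho = 0.51), and -0.57 and 0.62 without the 2 mice farthest in these markers. With macrophage markers it was -0.33 (rho = -0.44) and -0.32 (rho = -0.43), and -0.22 and -0.01 without the 2 mice farthest in these markers. With the share of counts from mitochondrial genes r was 0.58 (rho = 0.57) in early and 0.45 (rho = 0.12) in established mice, and 0.68 and 0.02 without the 2 mice farthest from the median share. With tendon markers it was -0.01 (rho = 0.13) and -0.61 (rho = -0.61), and 0.14 and -0.29 without the 2 mice farthest in these markers. With the log10 of the library total it was 0.59 (rho = 0.60) and -0.35 (rho = -0.15), and 0.50 and -0.18 without the 2 mice farthest in that total. The numbers of mice were 15 and 13, and the points share their libraries.

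The paralogs varied among themselves. Of the 8 tested in established mice, 5 were above 0, their median log2 fold change was 0.11, and 0 passed the test. Rpl3l, the form of Rpl3 used in striated muscle, ran from 0.24 through 5.33 to 66.5 CPM in WT and from 0.16 through 1.07 to 13.8 CPM in Fosl-2(Tg) mice, a log2 fold change of -2.25 ± 1.22 (SE; adjusted p = 0.25, edgeR). WT replicates 5 and 6 stood at 66.5 and 45.1 CPM, and the other 4 WT mice at no more than 7.86 CPM.

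Rpl3l followed the 18 muscle markers, with Pearson's r of 0.98 and Spearman's rho of 0.97 in the 15 early mice (adjusted p of 1.3e-05 for each, 100000-resample permutation test, two-sided) and 0.98 and 0.94 in the 13 established mice (adjusted p of 1.3e-05 and 2.0e-05, permutation test). Without the 2 mice farthest from the median marker level r was 0.97 and 0.96. An unadjusted p of 1.0e-05 is the smallest these permutations can give, and adjustment was over 4 tests. Unlike the correlations of the member level, these were not centred on group means. The permutations ran over both genotypes of a cohort together.

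Rps27l, a p53-responsive form of Rps27, and Rpl36al, a form of Rpl36a, were -0.22 ± 0.20 and -0.10 ± 0.21 in the established cohort (log2 fold change ± SE), while their partners Rps27 and Rpl36a were 0.42 ± 0.21 and 0.30 ± 0.16. As a log2 ratio within each mouse, Rps27l stood at -3.05 ± 0.31 relative to Rps27 in WT (SD, n = 6) and -3.65 ± 0.47 in Fosl-2(Tg) established mice (SD, n = 7), against -3.28 ± 0.27 (SD, n = 7) and -3.21 ± 0.25 (SD, n = 8) in the early cohort. Rpl36al relative to Rpl36a stood at -1.16 ± 0.19 and -1.54 ± 0.19 in established mice and at -1.25 ± 0.21 and -1.21 ± 0.25 in early mice. For Rpl22l1 relative to Rpl22 the established means, -3.32 ± 0.18 and -3.27 ± 0.30, differed by less than their spread. These ratios are descriptive and were not tested.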

How the data were processed

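Bulk RNA-sequencing of tail tendon fascicles from 28 mice was examined. The authors mapped reads with STAR to GRCm39 (GENCODE M26) and deposited raw featureCounts gene counts, 1 table per mouse. The versions of STAR and featureCounts and the strand and multiple-mapping settings are not given in the sources used here. Genotype, stage, sex and replicate number came from the sample labels. Members and gene lists were chosen with earlier results of these data known. Of 25719 genes, 25505 were named with GENCODE M39.

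Counts were filtered with filterByExpr (minimum count 10, minimum total 15) and scaled by TMM in edgeR 4.0.16 (R 4.3.3). Genotypes were compared within each cohort, and stages and the interaction in a fit of 4 groups, with edgeR's quasi-likelihood test and Benjamini-Hochberg adjustment over all genes, at an FDR of 0.05. Log2 CPM used a prior count of 2. SE is the log2 fold change divided by the square root of F. Single-mouse CPM were scaled within the cohort, and over all 28 mice for stage comparisons and levels. Named members were those called with the largest change in each direction (at most 5) or the 3 with the smallest p, a fixed list of known members and the paralogs with their partners. Nothing in the labels says whether mice of a group shared a litter.

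Alternatives were DESeq2 1.42.0, limma 3.58.1 voom with quality weights, RLE, library totals, TMM without the members, other filters, removal of marker genes, all mice in 1 fit, sex as covariate, females only, a replicate block and each mouse left out. In the early cohort same-numbered mice deviated together in all 7 pairs (r 0.15 to 0.41), although 0 of 7 WT mice correlated best with its own number. The scripts were tested on simulated data, in which 200 genes were changed. edgeR recovered 98% of these in each cohort and 87.5% for the interaction. Of its calls, 7.55% (early), 4.85% (established) and 5.91% (interaction) fell on unchanged genes. With DESeq2 these shares were 16.6%, 12.9% and 10.3% in the same order, and with limma voom 6.19% (early) and 4.95% (established). Recovery at the size of the members' shifts was not tested separately. Differences between libraries within a group exceeded sampling noise in all pairs (chi-square per degree of freedom at least 7.02). Some items are not reported here.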

Additional observations from a re-analysis of the deposited data

Results flagged for a closer look

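Over 88 combinations of a measure and a group, a mouse lay far from the rest of its group in 12 cases, where chance gives about 1 in 20 groups, and the cases are not independent because members move together.

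WT established replicate 6 had the highest member level, a mean log2 CPM of 7.93 against 7.10 to 7.40, and the highest share of counts, 2.34% against 1.25% to 1.56%. It was also highest in Rpl41 (357 CPM), Rps3 (228 CPM), Rps18 (183 CPM), Rps27l (43.8 CPM against at most 24.2) and Rpl35rt (3.90 CPM). Fosl-2(Tg) established replicate 5, 1 of the 2 established males, was highest in Rpl23 (290.3 CPM), Rps19 (255 CPM), Rps3 (333 CPM) and Rps27l (32.8 CPM). Fosl-2(Tg) early replicate 7 had the highest share of counts of its group, 2.47% against 1.26% to 1.80%. These CPM were scaled over all 28 mice.

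The genotype effect differed between the cohorts for Rpl8, with an interaction log2 fold change of 0.53 in edgeR's quasi-likelihood test.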

How the results depend on the processing

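In the established cohort the number of members higher was 9 with DESeq2 (10.3%, against 5.62% of all genes), 18 with limma voom (20.9% against 5.63%), 72 by library total (83.7% against 45.6%), 0 with no filter, 0 with females only and 0 with the replicate block (35 with an unadjusted p below 0.05), and 0 to 6 when 1 mouse was left out. The replicate block is a comparison by number alone there, since only 4 of 6 same-numbered pairs correlated above 0.1, and 2 of 6 WT mice correlated best with their own number. In the early cohort the block called 0 members in either direction (2 with an unadjusted p below 0.05). There 33 of 85 members were above 0, against 26 in the main fit. Over all genes the block called 2 higher and 9 lower, against 1 and 5 in the main fit. The members' median was 0.62 by library total, and the level as a log2 share of counts differed by 0.61. For the interaction the number higher was 3 with DESeq2 (3.49% against 4.72%), 65 by library total (75.6% against 48.7%), 2 with voom (2.33% against 5.59%), and 0 with no filter and 0 without the males. Between WT stages 50 members were lower with DESeq2 (57.5% against 5.03%), 3 by library total (3.49% against 1.32%) and 54 with voom (62.8% against 7.67%). The large minus small subunit median was -0.012 (voom) and -0.030 (replicate block) in the early cohort, where leaving out 1 mouse gave -0.064 to -0.016, and -0.009 (voom) in the established cohort, with -0.057 to -0.001. Rps27l turned to 0.11 by library total and to 0.005 without WT replicate 6 (-0.34 to 0.005 over mice left out), and Rpl3l to 0.14 with voom. Except as given by construction (fewer genes or mice), the cause was not tested. Depth limits members with few counts, such as Rpl39l.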
